A study of Homo sapiens with 6 samples.

Results

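The transcripts of 10 secreted signalling proteins were followed in SiHa cells, an established human cervical cancer line that carries HPV16, after CNN3, an actin-binding calponin, had been silenced. They were the chemokines CXCL1, CXCL2, CXCL3, CXCL8 and CCL20, the interleukins IL1A, IL1B, IL6 and IL11, and LIF, selected by gene symbol as secreted targets of NF-kB and AP-1 in epithelial carcinoma cells. All 10 were among the 48162 genes of the count table. The cells received either si-CNN3#1, which targets CNN3, or the control siRNA, si-NC. RNA was collected 48 h later from 3 independent assays in each group. Both groups were the same line in serum-containing medium, with no treatment named beyond transfection, and the knockdown rests on 1 siRNA. The sample records give a medium change at 24 h for both groups, and the study's methods give an earlier time for siRNA transfection.

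NF-kB and AP-1 are transcription factors that switch on cytokine genes when cells meet infection, damage or interleukin-1. NF-kB dimers bind a short sequence called the kappaB site, and AP-1 dimers of Fos, Jun and ATF proteins bind another. Carcinoma cells often release these cytokines without an outside stimulus, and the ELR chemokines (CXCL1, CXCL2, CXCL3 and CXCL8) are best known for drawing in neutrophils. In bulk RNA, a change in the number of cells that express a gene and a change in the RNA of each cell cannot be told apart.

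The promoters are shown first because they were searched for recognition sequences of NF-kB and AP-1, and because the members differed in which of the 2 sequences they held. RefSeq (GRCh38.p14) promoter windows were matched for 9 of the 10 members, not for LIF. In the 250 bases before the start of each gene, both strands were searched for GGNNTTTCC, a common form of the kappaB site, and for TGANTCA, the AP-1 site. The kappaB form was picked with known sites of these genes in mind. It was present in 6 of the 9 members, against 5.48% of 35116 RefSeq promoters. The window of each match that lies farthest from the start follows, written 5′ to 3′ on the gene's strand, with the kappaB match in capitals.
CXCL1: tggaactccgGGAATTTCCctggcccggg
CXCL2: tggagctccgGGAATTTCCctggcccggg
CXCL3: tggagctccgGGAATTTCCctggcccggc
CXCL8: tgcaaatcgtGGAATTTCCtctgacataa
IL6: atcaaatgtgGGATTTTCCcatgagtctc
CCL20: tgatcaatggGGAAAACCCcatgtggcaa

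These windows lie at chr4:73869305-73869333 (plus strand, CXCL1), chr4:74099254-74099282 (minus, CXCL2), chr4:74038749-74038777 (minus, CXCL3), chr4:73740468-73740496 (plus, CXCL8), chr7:22727118-22727146 (plus, IL6) and chr2:227813753-227813781 (plus, CCL20). The CCL20 match is on the opposite strand. The windows of CXCL1 and CXCL2 were identical at 28 of 29 bases, and those of CXCL1 and CXCL3 at 27 of 29. CXCL1, CXCL2 and CXCL3 each held a second match nearer the start. The IL1A, IL1B and IL11 windows held no such match, which says only that these letters were not in this stretch.

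The members were chosen as targets of NF-kB and AP-1, so their motif shares are no independent result. A member counted if any of its windows matched, while the percentages are of single windows. The AP-1 site was present in 3 of the 9 members, against 6.57% of the RefSeq promoters, and it overlapped no kappaB match. It is shown in capitals for CXCL8 (chr4:73740422-73740448, plus strand), for 1 of the 2 sites of IL1A (chr2:112784439-112784465, minus strand) and for IL11 (chr19:55370543-55370569, minus strand). IL1A had 2 promoter windows with different starts. In 1 window the site shown lies 55 to 49 bases before the start and the other site 105 to 99. In the other window only that other site was found, 12 to 6 bases before the start.
CXCL8: ggaagtgtgaTGACTCAggtttgccct
IL1A: cattggcgttTGAGTCAgcaaaggtat
IL11: gcagggagggTGAGTCAggatgtgtca

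CXCL8 was the member with both motifs. A match is a description of the sequence and not evidence of binding. The kappaB form was in the promoters of CXCL8, IL6 and CXCL1, which rose, and of CCL20, which passed narrowly. It was also in those of CXCL2 and CXCL3, which did not pass the test. The log2 fold changes of these members ran from 0.38 (CXCL2) to 1.40 (CXCL8). Of the members searched without this form, IL1A had 0.90, IL1B 0.14 and IL11 -0.02. The AP-1 form was in CXCL8 and IL1A, which rose, and in IL11, as set out below. Whether either motif goes with the change was not tested.

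The reads on genes added up to between 18147028 and 19026341 counts with si-CNN3#1 and between 20287139 and 24976517 with si-NC. The CNN3 counts were 1134, 1288 and 1234 with si-NC against 490, 514 and 574 after its silencing (log2 fold change -0.97, SE 0.06, edgeR adjusted p = 2.04e-20, where SE is the standard error). Of the 15860 genes tested, 2111 (13.3%) passed edgeR's quasi-likelihood test at an adjusted p of 0.05, of which 978 (6.17%) were higher after silencing and 1133 (7.14%) were lower. With total counts in place of TMM factors (scaling factors that assume most genes do not change), 60% of the calls were higher, against 46.3% with them. Keratin transcripts were abundant, with the 8 epithelial markers summing to 1455 to 1523 CPM with si-NC and 1416 to 1478 CPM with si-CNN3#1. Nearly all of this came from KRT7, KRT8, KRT17 and KRT18. KRT5 had 4 to 11 counts per sample, and KRT19 and EPCAM averaged 5.04 and 6.25 CPM with si-NC. The keratin KRT8 had the most CPM, at 608 ± 19.9 with si-NC, and fell to 533 ± 22.5 (SD, n = 3 each; log2 fold change -0.19, edgeR adjusted p = 4.87e-07), while the keratin KRT7 was the highest per length, at 800 FPKM with si-NC. Of the 7 tested epithelial markers 1 rose and 2 fell, beside 6.17% and 7.14% of all tested genes. KRT17 rose (log2 fold change 0.23, adjusted p = 1.78e-07), and KRT18 fell with KRT8 (-0.18, adjusted p = 5.31e-05, edgeR; both named after their values were seen). KRT8 and KRT18 overlap by 1084 bases on opposite strands. The library kit does not mark strand, so their reads there cannot be told apart. CPM are counts relative to the TMM-scaled library size. The 8 leukocyte markers summed to 145 to 156 CPM with si-NC and 121 to 128 with si-CNN3#1, nearly all of it CD14 (149 and 121 CPM on average), while the pan-leukocyte gene PTPRC had 6 to 18 counts per sample. Fibroblast markers summed to 11.2 to 13.2 CPM over all samples, with COL1A1 the highest, and endothelial markers to 0.796 to 1.51 CPM, with ERG the highest. No listed marker was at 0 in every sample. The part of other cell types in the results that follow was not tested.

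Silencing of CNN3 went with higher levels of the cytokine transcripts CXCL8, IL6, IL1A, CXCL1 and LIF. The increases ran from 1.50-fold (LIF) to 2.64-fold (CXCL8). CCL20 passed as a sixth by a narrow margin that most alternative fits did not keep. CXCL2, CXCL3, IL1B and IL11 did not pass the test. CCL20 entered the test only through its si-CNN3#1 samples and is set apart from the counts that follow, a choice made after its values were seen. Of the other 9 members 5 were called higher, beside 6.17% of all tested genes. In 6 of these 9 the samples of one group lay wholly above those of the other, against 28.2% of all tested genes. Their median log2 fold change was 0.62, against 0.0023 over all tested genes. With CCL20 the counts were 6 called and 7 not overlapping of 10, and the median was 0.66. Summed over the members, the level was 79.3 to 81.0 CPM with si-CNN3#1 and 47.3 to 51.7 CPM with si-NC.

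**Figure D1:**
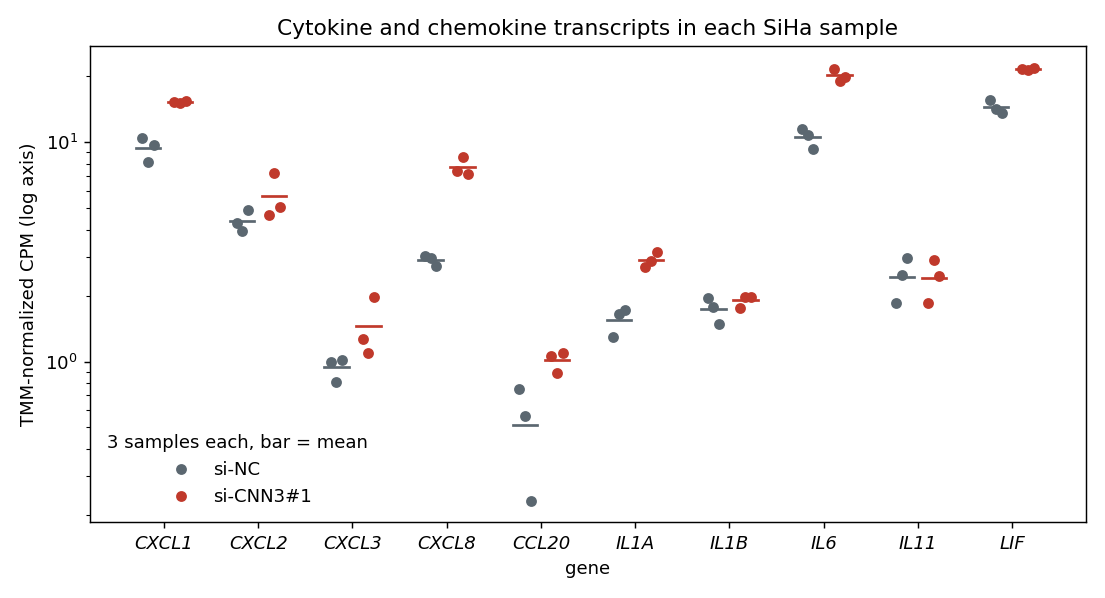
TMM-normalized CPM (log axis) of each of the 10 genes in each sample, with si-NC in grey, si-CNN3#1 in red, and a bar at the mean of 3 samples. The groups are apart for CXCL1, CXCL3, CXCL8, CCL20, IL1A, IL6 and LIF, and they overlap for CXCL2, IL1B and IL11.

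In control cells these were transcripts of middling to low abundance. On the deposited FPKM scale, which divides by gene length and so allows genes to be compared, IL6 and CXCL1 came first with si-NC, at 11.4 ± 1.16 and 11.2 ± 1.36 FPKM (SD, n = 3), close to the middle of all tested genes (percentiles 48.3 and 48.1). LIF followed at 6.30 ± 0.427 FPKM and CXCL2 at 5.52 ± 0.615 FPKM. CXCL8 stood at 2.89 ± 0.158, IL1B at 1.95 ± 0.259 and IL11 at 1.87 ± 0.436 FPKM. CXCL3, IL1A and CCL20 were lowest, at 0.903 ± 0.111, 0.726 ± 0.107 and 0.684 ± 0.346 FPKM, the last at percentile 8.75. The si-NC samples overlapped between IL6 and CXCL1, between LIF and CXCL2, between IL1B and IL11, between CXCL3 and IL1A, and between IL1A and CCL20, so the order within those pairs lies inside their spread. With si-CNN3#1 the order of the means was the same except that CXCL8, at 7.73 ± 0.770 FPKM, stood above CXCL2, at 7.23 ± 1.79 FPKM.

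The ELR chemokines CXCL8, CXCL1, CXCL3 and CXCL2 are ligands of the neutrophil receptors CXCR1 and CXCR2, and their genes lie together on chromosome 4 of GRCh38, from 73740506 to 74099293. CXCL8 (ENSG00000169429, plus strand, 73740506 to 73743716), the chemokine also known as interleukin-8, had 61, 74 and 59 counts with si-NC and 139, 164 and 131 with si-CNN3#1. Every si-CNN3#1 sample had more counts than any si-NC sample, although it was sequenced less deeply. The level rose from 2.92 ± 0.160 to 7.70 ± 0.738 CPM (SD, n = 3 each), a log2 fold change of 1.40 (SE 0.13, edgeR adjusted p = 1.88e-12). By p value CXCL8 ranked 53 among all tested genes.

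CXCL1 (ENSG00000163739, plus strand, 73869393 to 73871242) had 210, 203 and 210 counts with si-NC and 287, 290 and 281 with si-CNN3#1. The groups were well apart, and the si-CNN3#1 samples were close to each other at 15.2 ± 0.145 CPM, against 9.45 ± 1.18 CPM with si-NC (SD, n = 3 each). This was a log2 fold change of 0.70 (SE 0.09, edgeR adjusted p = 8.03e-09).

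CXCL2 (ENSG00000081041, minus strand, 74097035 to 74099293), a close relative of CXCL1, had 86, 98 and 106 counts with si-NC and 88, 139 and 93 with si-CNN3#1. Its groups overlapped, since si-CNN3#1 replicate 1, at 4.67 CPM, lay below si-NC replicate 3, at 4.91 CPM. The log2 fold change was 0.38 (95% interval 0.10 to 0.66, adjusted p = 0.0603, edgeR) and moved to 0.16 (adjusted p = 0.589) without si-CNN3#1 replicate 2, the sample with 139 counts. It rose to 0.50 (adjusted p = 0.0193) without si-CNN3#1 replicate 1 and to 0.45 (adjusted p = 0.0496) without si-CNN3#1 replicate 3, and so passed the threshold in both.

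CXCL3 (ENSG00000163734, minus strand, 74036589 to 74038807) had 20, 20 and 22 counts with si-NC and 24, 21 and 36 with si-CNN3#1. Relative to depth every si-CNN3#1 sample was higher, from 1.09 to 1.97 CPM against 0.803 to 1.02 CPM, but the log2 fold change of 0.62 had a 95% interval of 0.08 to 1.17 and an adjusted p of 0.13 (edgeR). It fell to 0.34 without si-CNN3#1 replicate 3. CXCL1, CXCL2 and CXCL3 share stretches of sequence: 12.5% of the 50-base words in CXCL2 transcripts, 6.01% of those in CXCL3 and 4.81% of those in CXCL1 also occur in transcripts of another gene. How reads with several matches were counted is not given in the sources used here, so the split of reads among the 3 is uncertain to that extent. Apart from the 4 members, 12 genes lie wholly between CXCL8 and CXCL2 on GENCODE's map, 5 of them protein-coding, among them CXCL5 and CXCL6. The 11 of these in the count table had at most 5 counts in any sample, so the 4 members were the genes of this stretch with enough reads to be tested.

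CCL20 (ENSG00000115009, chromosome 2, plus strand, 227805739 to 227817564), the ligand of CCR6 that attracts immature dendritic cells and some T cells, was the scarcest member. It had 15, 14 and 5 counts with si-NC and 20, 17 and 20 with si-CNN3#1. The groups did not overlap, at 0.514 ± 0.261 and 1.01 ± 0.113 CPM (SD, n = 3 each). The log2 fold change was 0.98 (SE 0.34, edgeR adjusted p = 0.0486), just past the threshold. With si-NC only 2 samples reached the filter's level of 0.509 CPM, so CCL20 entered the test through its si-CNN3#1 samples. Leaving out a single sample ended the call for each sample but si-NC replicate 1, with an adjusted p of up to 0.291 (log2 fold change 0.64) without si-NC replicate 3.

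Interleukin-1 alpha and beta bind the same receptor, and interleukin-1 alpha in particular acts as an alarm signal released from damaged epithelial cells. IL1A (ENSG00000115008, chromosome 2, minus strand, 112773915 to 112784590) had 26, 41 and 37 counts with si-NC and 51, 55 and 58 with si-CNN3#1. Every si-CNN3#1 sample was above every si-NC sample, at 2.92 ± 0.240 against 1.55 ± 0.225 CPM (SD, n = 3 each). The log2 fold change was 0.90 (SE 0.19, edgeR adjusted p = 0.000573).

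IL1B (ENSG00000125538, minus strand, 112829751 to 112836903), the next gene on the chromosome, had 39, 44 and 32 counts with si-NC and 33, 38 and 36 with si-CNN3#1. The groups overlapped, at 1.73 ± 0.232 and 1.90 ± 0.130 CPM (SD, n = 3 each). The log2 fold change was 0.14, with a 95% interval of -0.29 to 0.56 (adjusted p = 0.76, edgeR). The 0.90 of IL1A lies outside this interval, but the 95% interval of IL1A, 0.51 to 1.28, overlaps it. The count ratio of IL1A to IL1B within a sample, in which depth cancels, was 0.667, 0.932 and 1.16 with si-NC and 1.55, 1.45 and 1.61 with si-CNN3#1. All 3 si-CNN3#1 ratios were above all 3 si-NC ratios (two-sided exact permutation test, p = 0.1, which is the lowest that groups of 3 can reach, and adjusted p = 0.2 over the 4 ratios compared).

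IL6, IL11 and LIF belong to the interleukin-6 family, which signals through the shared receptor subunit gp130 (IL6ST) to STAT3. IL6 (ENSG00000136244, chromosome 7, plus strand, 22725884 to 22732002), an inducer of the acute-phase response, had 231, 268 and 202 counts with si-NC and 410, 365 and 363 with si-CNN3#1. The samples of the groups were far apart, at 10.5 ± 1.09 and 20.2 ± 1.40 CPM (SD, n = 3 each). This gave a log2 fold change of 0.94 (SE 0.08, edgeR adjusted p = 5.53e-14), and IL6 ranked 34 by p value among all tested genes.

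LIF (ENSG00000128342, chromosome 22, minus strand, 30240447 to 30246851), a cytokine first known for its action on leukaemia cells and stem cells, had 313, 353 and 294 counts with si-NC and 409, 411 and 401 with si-CNN3#1. As with CXCL1, the si-CNN3#1 samples were close together, at 21.7 ± 0.281 CPM, and the si-NC samples more spread, at 14.5 ± 1.02 CPM (SD, n = 3 each). Its log2 fold change was 0.59 (SE 0.07, edgeR adjusted p = 2.58e-09). The library kit does not mark strand, so reads of genes on the other strand cannot be told apart from those of LIF and IL6 where they overlap. AC004264.1, which overlaps LIF by 647 bases on the other strand, had 6 to 18 counts and a log2 fold change of 1.25 (adjusted p = 0.016, edgeR; named after its value was seen). With so few counts, not every si-NC sample reached the filter's level of 0.509 CPM, so its test is not read as support. The part of AC004264.1 in the LIF result was not tested. STEAP1B and AC073072.1, on the other strand at IL6, had at most 5 and 8 counts.

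IL11 (ENSG00000095752, chromosome 19, minus strand, 55364389 to 55370463), a family member linked to fibrosis and tumour growth, had 37, 62 and 64 counts with si-NC and 35, 56 and 45 with si-CNN3#1. The groups overlapped fully, at 2.43 ± 0.564 and 2.41 ± 0.532 CPM (SD, n = 3 each). The log2 fold change was -0.02, with a 95% interval of -0.41 to 0.37 (adjusted p = 0.969, edgeR). The count ratio of IL6 to IL11 was 6.24, 4.32 and 3.16 with si-NC and 11.7, 6.52 and 8.07 with si-CNN3#1. These ratios did not overlap (exact permutation test, p = 0.1, adjusted p = 0.2), whereas the ratios of LIF to IL11 and of CXCL1 to CXCL2 overlapped between the groups (exact permutation test, p = 0.2 and adjusted p = 0.2 for each).

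**Figure D2:**
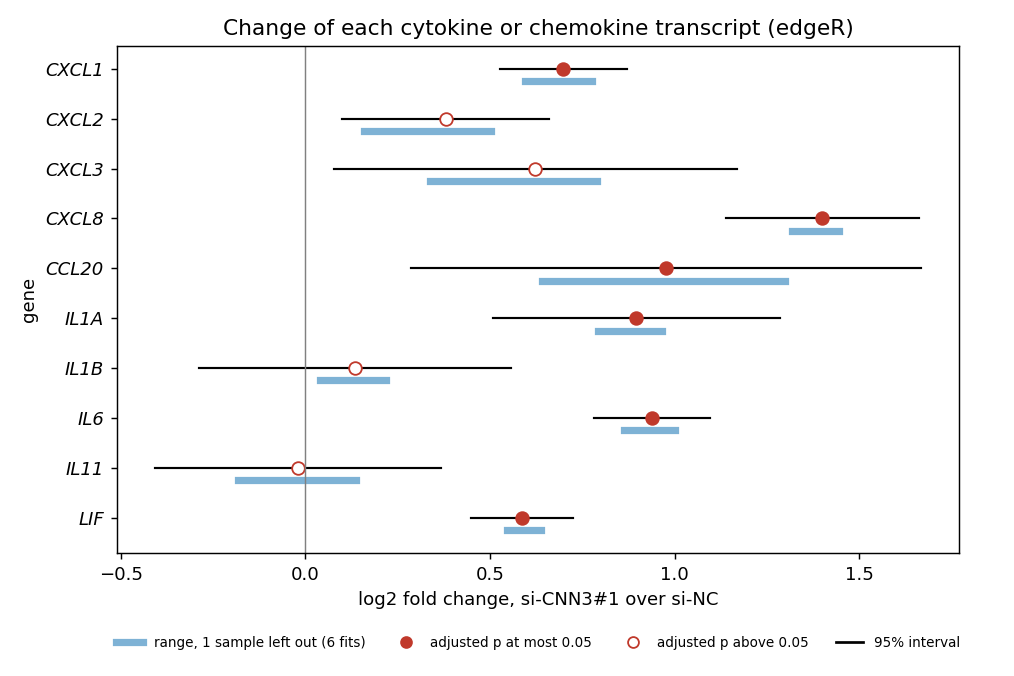
Log2 fold change of each gene (si-CNN3#1 over si-NC, edgeR) with its 95% interval in black, and the range over 6 fits that each left out 1 sample in blue; filled points passed an adjusted p of 0.05. CXCL8 lies highest at 1.40, the interval of CCL20 is wide, and the intervals of IL1B and IL11 include 0.

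**Figure D3:**
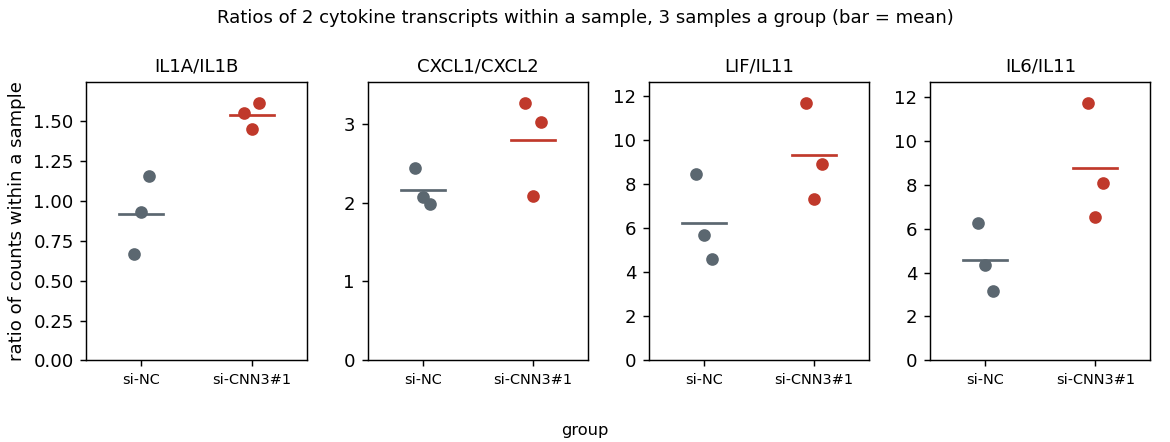
Ratio of the counts of 2 members within each sample (linear axis from 0), with a bar at the mean of 3 samples per group. The groups are apart for IL1A to IL1B and for IL6 to IL11, and they overlap for CXCL1 to CXCL2 and for LIF to IL11.

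Which cells respond to these ligands depends on the receptors they carry. Of 11 receptor genes 6 had enough reads to be tested, and the chemokine receptors were not among them: CXCR1, CXCR2, CCR6 and ACKR1 had at most 5 counts in any sample, and the decoy receptor IL1R2 at most 6. Of the 6 tested, 3 rose, beside 6.17% of all tested genes. IL1RAP, the accessory chain of the interleukin-1 receptor, rose from 24.3 ± 0.502 to 29.1 ± 1.34 CPM (log2 fold change 0.26, adjusted p = 0.000979), and LIFR, which pairs with gp130 to bind LIF, from 17.2 ± 0.974 to 20.3 ± 1.63 CPM (log2 fold change 0.24, adjusted p = 0.0139). IL6ST, at 163 ± 3.66 CPM with si-NC the most counted of the receptor genes, rose to 176 ± 4.96 CPM (log2 fold change 0.11, adjusted p = 0.00809, edgeR, SD over n = 3 for each). LIFR passed in 3 of the 6 fits that each left out a sample and IL6ST in 5, with the adjusted p going up to 0.108 and 0.0696, and LIFR did not pass with DESeq2 (adjusted p = 0.139). The signalling chain IL1R1 (log2 fold change -0.12, adjusted p = 0.118), IL6R (-0.22, adjusted p = 0.109) and IL11RA (-0.04, adjusted p = 0.891) did not pass the test. IL6R passed without si-CNN3#1 replicate 3 (-0.32, adjusted p = 0.0355).

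Of 31 other cytokines and chemokines, 30 were in the table and 12 were tested. Of these 4 rose and 1 fell, beside 6.17% and 7.14% of all tested genes. IL24, a cytokine of the interleukin-10 family, rose from 0.996 ± 0.175 to 1.99 ± 0.256 CPM (log2 fold change 0.98, adjusted p = 0.00287). IL32 (0.54, adjusted p = 1.14e-11), IL18, an inflammasome-processed relative of interleukin-1 (0.52, adjusted p = 5.68e-11), and CSF1, the macrophage growth factor (0.28, adjusted p = 4.16e-05, edgeR), rose by smaller factors from higher levels. CCL28, a mucosal chemokine, was the 1 that fell (log2 fold change -0.13, adjusted p = 0.0331, edgeR; named after its value was seen). With DESeq2 3 genes of the list passed, all higher, so CCL28 did not pass there. The 18 untested genes had at most 9 counts in any sample. Among these were TNF with at most 2 counts, the interleukin-1 antagonist IL1RN with at most 1, and MIF with 2 to 7. Since the counting of reads with several matches is not given, such low counts do not show that a gene was silent.

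A list of 16 NF-kB subunits, kinases and adaptors was tested, of which 4 rose and 1 fell, beside 6.17% and 7.14% of all tested genes. The largest changes of the list were those of RELB and NFKB2, which form the dimer of the alternative NF-kB pathway. RELB, the partner of p52, rose from 10.0 ± 0.215 to 17.3 ± 0.189 CPM (log2 fold change 0.79, adjusted p = 1.2e-11), and NFKB2, the precursor of p52, from 91.1 ± 2.12 to 118 ± 3.10 CPM (log2 fold change 0.37, adjusted p = 1.74e-12, edgeR, SD over n = 3 for each). RELA and NFKB1, the subunits of the classical dimer, had log2 fold changes of 0.03 and 0.05 (adjusted p = 0.712 and 0.446; both named after their values were seen). The changes of CHUK, a kinase of the pathway (0.14, adjusted p = 0.0286), and TAB1, an adaptor (-0.14, adjusted p = 0.0321), were small, and they passed in 2 and 1 of the 6 fits that left out a sample.

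Of 17 tested inhibitors and non-cytokine targets of NF-kB, 15 passed the test, 11 higher and 4 lower, beside the 13.3% of all genes. TNFAIP3, the ubiquitin-editing inhibitor A20, rose from 30.0 ± 0.377 to 46.1 ± 1.62 CPM (SD, n = 3 each; log2 fold change 0.62, adjusted p = 2.36e-14). LCN2, an iron-binding defence protein (0.57, adjusted p = 0.00468), BIRC3, an inhibitor of apoptosis (0.42, adjusted p = 0.000179), and NFKBIE, an IkB inhibitor (0.40, adjusted p = 0.011, edgeR), rose as well. NFKBIE passed in 4 of the 6 fits that left out a sample (adjusted p up to 0.060), and with DESeq2 neither NFKBIE (adjusted p = 0.127) nor LCN2 (0.0794) passed. The 4 that fell were the complement component C3 (log2 fold change -0.17), the IkB family member BCL3 (-0.17), TNFAIP2 (-0.11) and NFKBIA, the IkB-alpha inhibitor (-0.10), all named after their values were seen. C3 was by far the most counted gene of the list, at 2729 CPM with si-NC on average, and the summed level of the list was therefore lower with si-CNN3#1 (3896 to 4052 CPM) than with si-NC (4174 to 4225 CPM). The list's median log2 fold change was 0.17. With DESeq2 8 of its genes passed, 5 of them higher.

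Of 12 AP-1 and C/EBP factors, 3 rose and 2 fell, beside 6.17% and 7.14% of all tested genes, with a median log2 fold change of 0.01. ATF3, a stress-induced partner of Jun, changed most, from 5.57 ± 0.659 to 14.2 ± 0.730 CPM (log2 fold change 1.33, adjusted p = 2.48e-16), and JUN rose from 40.6 ± 3.78 to 52.7 ± 4.13 CPM (log2 fold change 0.38, adjusted p = 2.12e-07, edgeR, SD over n = 3 for each). FOSL1 was higher by 0.21 on the log2 scale (adjusted p = 0.0386) and passed in 2 of the 6 fits that left out a sample. JUNB fell by 0.21 on the log2 scale (adjusted p = 2.54e-06), with the whole gene lying inside HOOK2 on the other strand, and JUND by 0.12 (adjusted p = 0.0399, edgeR; JUND named after its value was seen). The JUND groups overlapped. With DESeq2 3 genes of the list passed, 2 of them higher, and JUND was not among them.

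**Figure D4:**
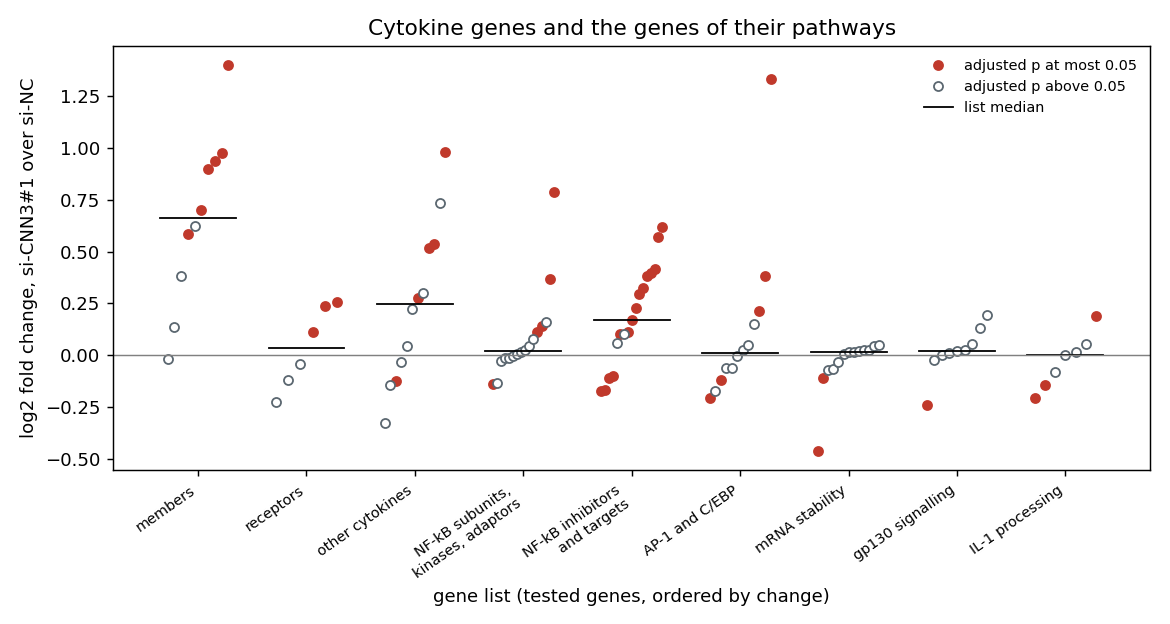
Log2 fold change (si-CNN3#1 over si-NC) of every tested gene of each list, with filled points for an adjusted p of 0.05 or less and a line at the list's median. The members have a median of 0.66, the other cytokines one of 0.25, and the NF-kB inhibitors and targets one of 0.17. The lists of receptors, NF-kB subunits, AP-1 factors, mRNA stability, gp130 signalling and interleukin-1 processing have medians close to 0. Single genes of these lists are as far out as ATF3 at 1.33 and DUSP1 at -0.46.

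Cytokine messages are short-lived, since proteins of the tristetraprolin family bind their AU-rich elements and hasten their decay, and the p38 kinase slows it. Of 13 such regulators 2 passed the test, a share close to the 13.3% of all tested genes, and both fell. DUSP1, the phosphatase that switches off p38 and JNK, fell from 72.8 ± 1.60 to 52.8 ± 2.09 CPM (SD, n = 3 each; log2 fold change -0.46, adjusted p = 5.4e-13). ZFP36L1, an AU-rich element binding protein, fell by 0.11 on the log2 scale (adjusted p = 0.006, edgeR). Below gp130, 1 of 9 genes passed, again no more than the 13.3% of all tested genes. This was the kinase TYK2, which fell from 150 ± 1.56 to 127 ± 3.55 CPM (SD, n = 3 each; log2 fold change -0.24, adjusted p = 3.33e-08, edgeR). SOCS3, the feedback inhibitor induced by STAT3, had a log2 fold change of 0.13 (adjusted p = 0.298; named after its value was seen).

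Of 7 tested genes for processing and release of interleukin-1, 3 passed, beside 13.3% of all tested genes. CASP4, an inflammatory caspase, rose by 0.19 on the log2 scale (adjusted p = 0.000436), CASP1, which cleaves interleukin-1 beta and interleukin-18, fell by 0.21 (adjusted p = 0.028), and CAPN1, a calpain subunit, fell by 0.14 (adjusted p = 0.00107, edgeR). The CASP1 groups overlapped, and it passed in 2 of the 6 fits that left out a sample. Over all 8 pathway lists, 39 of the 92 tested genes passed, beside 13.3% of all tested genes. Of these 26 were higher and 13 lower, beside 6.17% and 7.14% of all tested genes, and the median log2 fold change was 0.025. With DESeq2 24 passed, 16 higher and 8 lower.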

How the data were processed

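RNA sequencing of 6 SiHa samples was analysed (3 with si-CNN3#1, 3 with si-NC). The deposited values are raw read counts per Ensembl gene and FPKM, which the authors derived from reads aligned with TopHat2 after quality filtering. The submitters' processing notes name TopHat2 2.0.9, Bowtie2 2.0.6, HTSeq and DESeq 1.10.1. The genome build is not given in the sources used here, and names and positions came from GENCODE release 29 (GRCh38), which names 45342 of 48162 identifiers. Symbols not matched there (CCL5, IKBKG, PECAM1) were left out.

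Counts were tested with edgeR 4.0.16 (R 4.3.3; TMM, filterByExpr, glmQLFit and glmQLFTest, condition only) with Benjamini-Hochberg adjustment over all tested genes. Each standard error was derived from the fold change and its F statistic. Members, lists and tests were chosen with earlier results of these data known, so no test was run over a list. Named genes are the members, CNN3, receptors with a mean of at least 1 CPM, up to 4 called genes of each other list with the largest change and a mean of at least 1 CPM, and the highest gene of each marker list. Samples of a group differed beyond sampling noise (chi-square over its degrees of freedom, 1.66 or more), so none was merged. Alternatives were other scalings, filters, DESeq2 1.42.0, limma 3.58.1 (log2 FPKM with pseudocounts of 1 and 0.1), a replicate block and leaving out each sample. The main fit, the replicate block, DESeq2 and the filtered limma fit with a pseudocount of 1 were also run on simulated data. The other alternatives and the permutation test were not.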

Additional observations from a re-analysis of the deposited data

How the results depend on the processing

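Over 16 alternative fits, CXCL1, CXCL8, IL6 and LIF passed the threshold in each, IL1A in 15, and CCL20 in 5 of the 14 that gave it an adjusted p. IL1A was lost in the unfiltered limma fit with a pseudocount of 1 (log2 fold change 0.46, adjusted p = 0.0875), and CCL20 without a filter on low counts (log2 fold change 0.97, adjusted p = 0.0514), with limma and a pseudocount of 1 (0.51, adjusted p = 0.0751, and 0.218 unfiltered) or of 0.1 (1.01, adjusted p = 0.0967) and in 5 of the fits that left out a sample. CXCL2 passed with total counts (adjusted p = 0.0444) as well as in the fits named above. Between 4 and 7 members were called over the alternatives, 5 with DESeq2. The sign of IL11 turned without si-CNN3#1 replicate 1 (0.14), without si-NC replicate 3 (0.14) and with limma on FPKM (0.0042 with a pseudocount of 1, with or without the filter, and 0.0067 with 0.1), and that of IL11RA without si-CNN3#1 replicate 1 (0.048) and without si-NC replicate 2 (0.030), with ranges of -0.18 to 0.14 and -0.18 to 0.048 over the fits that left out a sample, far from the threshold in each. The number of all genes called was 1073 with DESeq2, 1363 and 1353 with limma on log2(FPKM + 1) and log2(FPKM + 0.1), and 585 in its unfiltered fit. The number of pathway genes called was 24 with DESeq2 and 15 in the unfiltered limma fit, and the cause was not tested. Leaving out a sample gave 1551 to 1747 called genes, 5 to 6 members, 28 to 34 pathway genes, a log2 fold change of CNN3 of -1.06 to -0.92, and a median ratio of the members' mean CPM of 1.50 to 1.67 (1.58 with all samples).

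Samples with the same replicate number correlated weakly (0.0455, 0.0873 and 0.0498 for the deviations from group means), although each sample correlated best with its own number. Whether the samples were paired by number cannot be told from these values, and the main fit did not use the number. With the replicate number as a block, 2727 genes, 43 pathway genes and 7 members were called, CXCL2 being added (adjusted p = 0.026). Depth limits CCL20 and CXCL3 most, with 5 to 36 counts per sample, followed by IL1B with 32 to 44. The 95% intervals are those of the mean fold change and rest on the spread between these samples only. The common coefficient of variation that edgeR estimated between samples of a group, beyond sampling noise, was 0.0232. The p values rest on this spread as well.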
